A study of Mus musculus with 6 samples.

Results

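Heat shock proteins and cytosolic chaperones were examined in naive CD8 T cells of LAIR-1-deficient and wild type mice. Members were taken from the count table by gene symbol. They comprised the Hspa, Hspb, Hspd, Hspe, Hsph and Hsp90 genes, every J-domain (Dnaj) gene, the Cct genes and Tcp1 of the cytosolic chaperonin, the co-chaperone genes St13, Stip1 and Bag3, and the transcription factor gene Hsf1. Hspa5, the HSP70 of the endoplasmic reticulum, and Hspbap1 were not counted as members. The rule found 77 of the 14515 genes in the table, of which 65 had enough counts to be tested. The other 12 averaged under 2 CPM, the count scaled to library size with TMM factors. The symbols follow family names, so the members also include proteins of mitochondria and the endoplasmic reticulum, and 1 protein, Hspb11, that is a subunit of the intraflagellar transport machinery.

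Chaperones bind unfolded stretches of other proteins and keep them from aggregating. HSP70 proteins do so in a cycle of ATP hydrolysis that J-domain proteins start and that nucleotide exchange factors, among them the HSP110 proteins, reset. Clients pass from HSP70 to HSP90, which finishes kinases and steroid receptors, or to the ring-shaped chaperonin TRiC/CCT, which folds actin and tubulin. HSF1 is the transcription factor that raises many of these genes after heat or protein damage, through repeated GAA units that alternate in direction. T cells need this machinery for the kinases of antigen receptor signalling and when they leave quiescence.

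LAIR-1 is an inhibitory collagen receptor of leukocytes. The groups were 3 LAIR-1-deficient mice (Lair1-/-) and 3 wild type mice (Lair1+/+). The labels give no strain, sex, age or description of the allele, and none of the animals is said to have been treated. From each spleen, after red cell lysis, 100000 cells were sorted by a gate with CD45, CD3 and CD8 as present and CD44 as absent markers among others, and each mouse gave 1 library of total RNA. Gene counts summed to 5519748 to 7296424 in LAIR-1-deficient and 7974206 to 9187017 in wild type libraries. Lair1 had 2, 1 and 1 counts in LAIR-1-deficient mice 1 to 3, against 58, 32 and 43 in wild type mice 1 to 3. Summed markers of CD8 T cells ranged from 5120 to 5640 CPM in LAIR-1-deficient and 5220 to 5570 CPM in wild type libraries. The corresponding ranges were 25.3 to 32.3 and 29.7 to 32.5 CPM for B cells, and at most 6.97 and 5.17 CPM for macrophages and monocytes. Erythroid markers, of which 2 of 4 were in the table, summed to 33.7, 26.9 and 140 CPM in LAIR-1-deficient mice 1 to 3 and 34.2, 166 and 74.3 CPM in wild type mice 1 to 3. Immediate early genes were high in mouse 1 of both genotypes. Over the 23 tested they summed to 19310, 7040 and 7392 CPM in LAIR-1-deficient and 15970, 7393 and 8101 CPM in wild type mice 1 to 3. Nr4a1, which antigen receptor signals induce, was at 588, 78.3 and 56.7 CPM in LAIR-1-deficient mice and 473, 80.4 and 113 CPM in wild type mice.

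HSF1 sites can be looked for in the bases before each gene's start. In the 250 bases before the RefSeq start (GRCm38.p6), 61 members had a window. At least 2 alternating units, written GAANNTTC or TTCNNGAA and each reading the same on both strands, were found for 15 of the 61 (24.6%), against 14.5% of 27025 genes. Runs of 3 alternating units were found for 3 members (4.92%), Dnajb6, Hspd1 and Hspe1, against 0.514% of genes. A match of letters is not a binding site, and a gene with several windows was counted once if any of them held the letters. The members counted are not all independent. The annotated starts of Hspd1 and Hspe1 lie 111 bases apart, and the windows of Hspa1a and Hspa1b, both among the 15, differ at 3 positions. The windows of 4 members are shown, because they carry these letters in members that differed between mice (Hsph1, Hspa1b) and in members with the longer runs (Hspe1, Dnajb6). Capitals mark the alternating units. Hsph1 (chr5:149636316-149636565, minus strand) and Hspa1b (chr17:34959239-34959488, minus strand) each hold 1 pair of units. Hspe1 (chr1:55087898-55088147, plus strand) holds an 18-base run, and Dnajb6 (chr5:29735648-29735897, plus strand) a 13-base run.
Hsph1: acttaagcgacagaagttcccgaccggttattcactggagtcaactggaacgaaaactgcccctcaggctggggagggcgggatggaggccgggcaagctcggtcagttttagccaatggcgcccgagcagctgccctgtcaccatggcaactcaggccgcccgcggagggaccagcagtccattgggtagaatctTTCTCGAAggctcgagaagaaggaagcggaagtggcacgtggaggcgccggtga
Hspa1b: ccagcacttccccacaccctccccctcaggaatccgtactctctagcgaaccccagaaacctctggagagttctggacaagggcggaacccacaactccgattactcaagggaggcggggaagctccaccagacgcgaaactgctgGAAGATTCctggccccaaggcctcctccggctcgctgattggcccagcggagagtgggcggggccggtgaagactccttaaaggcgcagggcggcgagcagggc
Hspe1: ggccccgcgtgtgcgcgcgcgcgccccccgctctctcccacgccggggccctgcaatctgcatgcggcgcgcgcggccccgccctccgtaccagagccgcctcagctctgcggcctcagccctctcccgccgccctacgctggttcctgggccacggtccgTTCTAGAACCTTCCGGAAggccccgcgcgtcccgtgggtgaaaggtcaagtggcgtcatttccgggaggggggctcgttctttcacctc
Dnajb6: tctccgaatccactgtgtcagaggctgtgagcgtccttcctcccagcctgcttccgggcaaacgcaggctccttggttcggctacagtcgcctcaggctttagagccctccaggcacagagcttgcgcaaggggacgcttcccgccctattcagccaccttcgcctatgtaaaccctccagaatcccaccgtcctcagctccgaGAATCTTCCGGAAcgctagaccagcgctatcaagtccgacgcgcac

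Between the genotypes, no chaperone gene passed the test. Fitted fold changes lay on both sides of 0 with a median near 0. With 3 mice per group, the lack of a call does not show that levels were equal. edgeR's quasi-likelihood test, adjusted by the Benjamini-Hochberg method over 9565 genes at a threshold of 0.05, called 0 of 65 tested members, against 0.0105% of all tested genes (1 gene, Lair1). The smallest adjusted p of a member was 0.9999. DESeq2 and limma-voom also called 0 members. At an unadjusted p under 0.05 stood 3 members (4.62%), against 3.25% of all tested genes, and 3 members by DESeq2 and by limma-voom as well. They were Hsph1, Dnajc11 and Dnajc14, all higher in LAIR-1-deficient mice. The log2 fold change, LAIR-1-deficient over wild type throughout, was above 0 for 33 of 65 members (50.8%), against 50.2% of all tested genes. Its median was 0.001 for the members and 0.001 for all tested genes. Both groups' libraries overlapped for 61 members. All 3 LAIR-1-deficient libraries lay above all wild type libraries for 2 members (3.08%, against 4.30% of all tested genes) and below them for 2 others (3.08%, against 4.09%).

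For most members, the intervals left room only for differences of less than 2-fold. The 95% interval stayed within 2-fold either way for 57 of 65 members (87.7%, against 85.9% of all tested genes) and within 1.5-fold for 43 (66.2%, against 63.2%). All 49 members at 10 CPM or more were within 2-fold, as were 8 of the 16 below 10 CPM. Intervals are those of the fitted model. CPM can depend on transcript length and on which part of a transcript was read, so levels are compared here between libraries and not between genes.

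**Figure D1:**
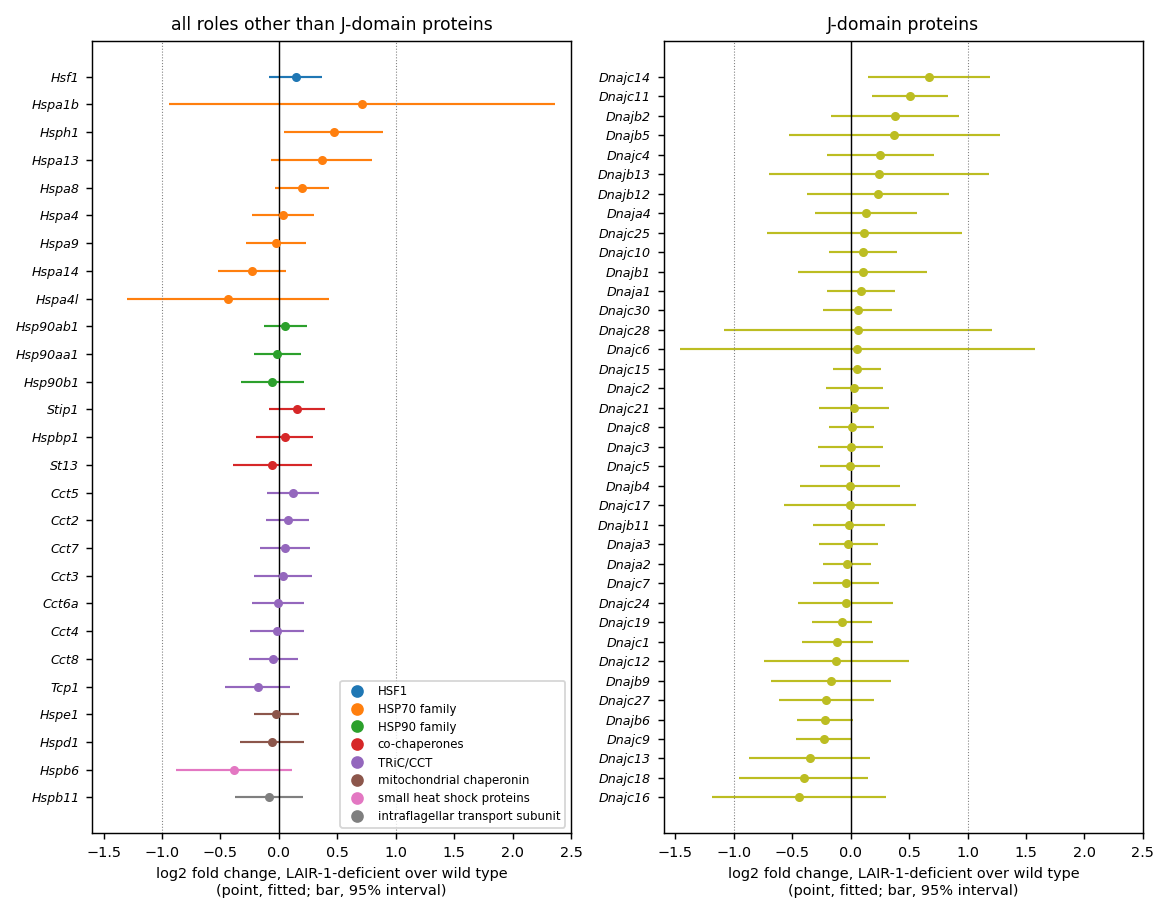
Log2 fold change of the 65 tested members, LAIR-1-deficient over wild type (points, edgeR fit; bars, 95% intervals; solid line, no difference; dotted lines, 2-fold). The left panel holds all roles other than J-domain proteins, coloured by role, and the right panel the J-domain proteins. Intervals of Hsph1, Dnajc11 and Dnajc14 lie wholly above 0, and none of the 3 passed after adjustment over all genes.

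HSF1 was measured well and differed little. Hsf1 was at 89.5, 89.7 and 83.0 CPM in LAIR-1-deficient mice 1 to 3, against 86.7, 78.6 and 72.1 CPM in wild type mice 1 to 3. LAIR-1-deficient mice were at the upper end, and the groups overlapped through wild type mouse 1. The log2 fold change was 0.14 (95% interval -0.08 to 0.37).

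Of the HSP70 family, 11 genes were in the table and 8 were tested, 5 with a positive and 3 with a negative fold change and a median log2 fold change of 0.12. Hspa8, the constitutive cytosolic HSP70, was at 848, 719 and 1002 CPM in LAIR-1-deficient mice 1 to 3, against 815, 712 and 713 CPM in wild type mice 1 to 3. LAIR-1-deficient mice 3 and 1 were the highest libraries, and mouse 2 of that genotype lay within the wild type range. The log2 fold change was 0.20 (-0.03 to 0.43, unadjusted p = 0.0896 in edgeR's fit), and it was 0.07 once LAIR-1-deficient mouse 3 was dropped. Hsph1, an HSP110 protein that exchanges nucleotide on HSP70, was at 42.2, 52.3 and 79.3 CPM in LAIR-1-deficient mice, against 45.4, 40.9 and 39.6 CPM in wild type mice. Again LAIR-1-deficient mouse 3 was highest, while mouse 1 of that genotype lay within the wild type range. Its log2 fold change was 0.47 (SE 0.19, interval 0.05 to 0.89), the unadjusted p in edgeR's fit 0.0327 and the adjusted p 0.9999. With LAIR-1-deficient mouse 3 left out it was 0.17, and with mouse 1 of both genotypes left out 0.71.

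Of the other HSP70 genes, Hspa4 and Hspa13 were also highest in LAIR-1-deficient mouse 3, and Hspa14 was lowest there. Hspa4, a second HSP110 protein, was at 55.1, 59.9 and 71.6 CPM in LAIR-1-deficient mice, against 68.5, 59.6 and 54.4 CPM in wild type mice, a log2 fold change of 0.03 with overlapping groups. Hspa13, an HSP70-like protein of microsomes, was at 10.9, 13.3 and 13.8 CPM in LAIR-1-deficient mice, against 12.0, 7.66 and 9.98 CPM in wild type mice, a log2 fold change of 0.37 (-0.07 to 0.80) that lay between 0.21 (wild type mouse 2 dropped) and 0.52 (wild type mouse 1 dropped) with any single library left out. Only wild type mouse 1 reached into the LAIR-1-deficient range. Hspa14, which works on ribosomes together with Dnajc2 in human cells, was at 37.6, 39.7 and 28.9 CPM in LAIR-1-deficient mice and 39.7, 40.3 and 44.2 CPM in wild type mice. Every LAIR-1-deficient value lay below every wild type value, by a narrow margin for mouse 2 of that genotype, and the log2 fold change was -0.23 (-0.52 to 0.06). Hspa14 was chosen after its values were seen.

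The heat-inducible HSP70 genes were low and differed between mice. Hspa1a and Hspa1b lie 9952 bases apart, their coding sequences are 99.4% identical over 1926 and 1929 bases, and their windows of 250 bases differ at 3 positions. How the authors split reads between such copies is not given in the sources used here, so the division of counts between them is uncertain. Hspa1b had 92, 14 and 23 counts in LAIR-1-deficient mice 1 to 3, against 44, 23 and 33 in wild type mice 1 to 3. Scaled, that was 13.3, 2.49 and 3.14 CPM, against 5.55, 2.52 and 3.70 CPM. Mouse 1 was highest in each genotype, the groups overlapped, and the log2 fold change of 0.71 had an interval of -0.94 to 2.36. Its sign rested on LAIR-1-deficient mouse 1: it was -0.46 with that library dropped and -0.13 with mouse 1 of both genotypes dropped, and up to 1.07 with other single libraries left out. Hspa1a, untested and chosen after its values were seen, had 34, 1 and 5 counts in LAIR-1-deficient mice, against 5, 2 and 2 in wild type mice. Together the pair had 126, 15 and 28 counts in LAIR-1-deficient mice, against 49, 25 and 35 in wild type mice. Mouse 1 of both genotypes was also the library with the high immediate early genes given above, whose part in these values was not tested. Hspb1, a small heat shock protein that heat induces, also chosen after its values were seen, had 4, 0 and 0 counts in LAIR-1-deficient mice, against 0 in all wild type mice, so the 4 counts came from mouse 1 as well. A count of 0 allows up to 3 counts per library. Mouse 1 was not high for every member. Hsph1, Dnaja1 and Hspd1 were lowest of their genotype in LAIR-1-deficient mouse 1, at 42.2, 160 and 42.5 CPM. Over all tested members, mouse 1 was highest in both genotypes for 14 of 65 (21.5%, against 16.9% of all tested genes).

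**Figure D2:**
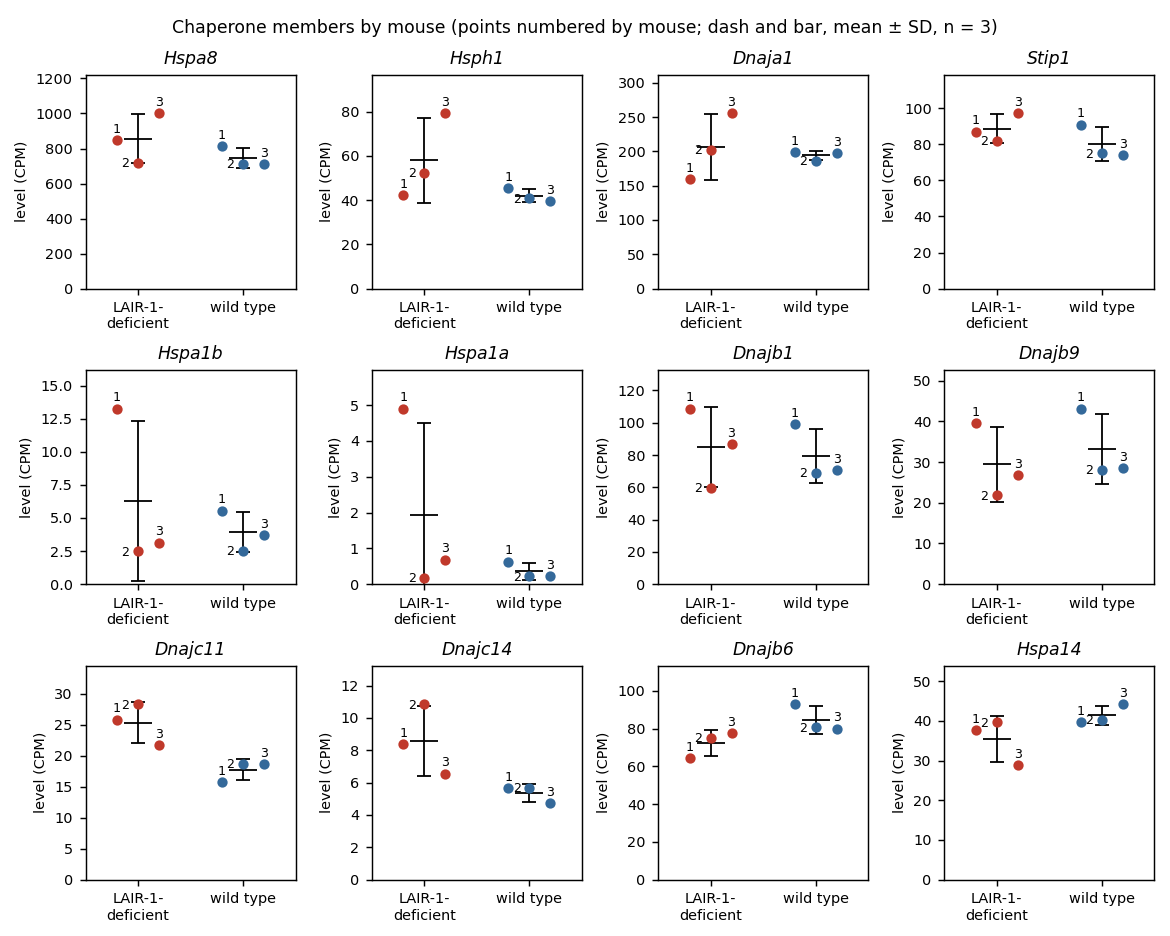
Level of 12 members in each library (CPM, each panel with its own axis from 0; LAIR-1-deficient left, wild type right; points, single mice with their number; dash and bar, mean ± SD, n = 3). Hspa8, Hsph1 and Dnaja1 are highest in LAIR-1-deficient mouse 3, and Hspa1a and Hspa1b in LAIR-1-deficient mouse 1. The groups do not overlap for Dnajc11 and Dnajc14, higher in LAIR-1-deficient mice, and for Dnajb6 and Hspa14, lower there.

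Across the HSP90 family and the co-chaperone genes Stip1, St13 and Hspbp1, fitted differences between genotypes were small. Hsp90ab1, the constitutive cytosolic HSP90, was at 1835, 1675 and 1975 CPM in LAIR-1-deficient mice 1 to 3, against 1844, 1754 and 1686 CPM in wild type mice 1 to 3, a log2 fold change of 0.05 (-0.13 to 0.24). Hsp90aa1, the inducible form, was at 182, 156 and 172 CPM in LAIR-1-deficient mice, against 178, 164 and 175 CPM in wild type mice. Hsp90b1, the HSP90 of the endoplasmic reticulum, averaged 63.5 ± 10.2 CPM in LAIR-1-deficient and 66.0 ± 5.64 CPM in wild type mice (SD, n = 3 per group). For these 3 genes the groups overlapped and the largest ratio of highest to lowest mouse within a genotype was 1.37. Stip1 (HOP), which hands clients from HSP70 to HSP90, was at 86.9, 81.8 and 97.2 CPM in LAIR-1-deficient mice, against 90.8, 75.1 and 73.9 CPM in wild type mice. Its log2 fold change was 0.15 (-0.09 to 0.39), and 0.08 without LAIR-1-deficient mouse 3, where it was highest. St13 (HIP), which stabilises HSP70, and Hspbp1, which exchanges its nucleotide, had log2 fold changes of -0.05 and 0.05. Bag3, a partner of HSP70 in stress-induced autophagy, was untested, with 11, 5 and 3 counts in LAIR-1-deficient mice, against 22, 7 and 7 in wild type mice. Mouse 1 was highest in both genotypes for Bag3, which was chosen after its values were seen.

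The cytosolic chaperonin TRiC/CCT had small fitted differences between genotypes and little spread between mice. Its 8 tested subunits had 4 positive and 4 negative log2 fold changes between -0.18 and 0.12, and their intervals together reached from -0.46 to 0.34. Within a genotype, no subunit differed by more than 1.28-fold between mice. Cct2 was at 365, 339 and 333 CPM in LAIR-1-deficient mice, against 317, 345 and 322 CPM in wild type mice, and the groups overlapped. Tcp1, the alpha subunit, was at 33.0, 39.5 and 38.1 CPM in LAIR-1-deficient mice, against 46.2, 42.7 and 36.7 CPM in wild type mice. Its log2 fold change of -0.18 (-0.46 to 0.09) was the lowest of the subunits, and its annotation overlaps a small nucleolar RNA gene on the same strand. Cct6b, a testis form of the zeta subunit, was near 0 counts and was not tested.

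The mitochondrial chaperonin pair had fitted differences close to 0 between genotypes. Hspe1 and Hspd1 encode the HSP10 lid and the HSP60 barrel and have annotated starts 111 bases apart. Hspe1 was at 484, 421 and 486 CPM in LAIR-1-deficient mice, against 493, 477 and 443 CPM in wild type mice, a log2 fold change of -0.02 (-0.21 to 0.17). Hspd1 was at 42.5, 56.9 and 53.5 CPM in LAIR-1-deficient mice, against 50.6, 58.6 and 49.7 CPM in wild type mice. Its log2 fold change was -0.06 (-0.33 to 0.22). The groups overlapped for both genes. Of the 4 small heat shock proteins in the table, Hspb6 was tested, at 5.62, 6.58 and 10.4 CPM in LAIR-1-deficient mice and 10.5, 9.19 and 10.1 CPM in wild type mice, a log2 fold change of -0.39 (-0.88 to 0.11). It was -0.71 with LAIR-1-deficient mouse 3 dropped and -0.21 with LAIR-1-deficient mouse 1 dropped.

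J-domain proteins, the co-chaperones that start the HSP70 cycle, were 42 of the members in the table and 38 of the 65 tested. At an unadjusted p under 0.05 in edgeR's fit stood 2 of these 38, against 3.25% of all tested genes. Of the 38, 20 had a positive and 18 a negative log2 fold change, with a median of 0.004. Dnajc11, a mitochondrial protein tied to cristae formation, was at 25.8, 28.3 and 21.7 CPM in LAIR-1-deficient mice, against 15.8, 18.7 and 18.6 CPM in wild type mice. Every LAIR-1-deficient library was above every wild type library. The log2 fold change was 0.51 (SE 0.15, interval 0.18 to 0.83), with an unadjusted p of 0.00405 and an adjusted p of 0.9999 in edgeR's fit, and it lay between 0.42 and 0.61 when any single library was left out. Dnajc14, a protein of the endoplasmic reticulum membrane, was at 8.36, 10.9 and 6.56 CPM in LAIR-1-deficient mice, against 5.68, 5.69 and 4.71 CPM in wild type mice. The groups did not overlap here either. The log2 fold change was 0.67 (0.14 to 1.19), the unadjusted p in edgeR's fit 0.0153 and the adjusted p 0.9999. Dnajc14 overlaps Sarnp on the same strand in the annotation, and counts of the pair cannot be told apart by what the sources used here state.

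Other J-domain proteins showed smaller differences. Dnajb6, a suppressor of protein aggregation, was at 64.6, 75.2 and 77.8 CPM in LAIR-1-deficient mice, against 93.0, 80.7 and 80.0 CPM in wild type mice. Every LAIR-1-deficient library was below every wild type library, and the log2 fold change was -0.22 (-0.46 to 0.02). It lay between -0.28 and -0.15 with any single library left out, and was -0.07 with mouse 1 of both genotypes left out. Dnaja1, the cytosolic partner of Hspa8, was at 160.0, 202 and 256 CPM in LAIR-1-deficient mice, against 198, 186 and 198 CPM in wild type mice. Its lowest and highest libraries were both LAIR-1-deficient, and its log2 fold change was 0.09, or -0.10 without LAIR-1-deficient mouse 3. Dnaja2, a related cytosolic protein, averaged 149 ± 4.33 CPM in LAIR-1-deficient and 153 ± 14.1 CPM in wild type mice, and Dnajc8, a protein of the spliceosome, 236 ± 5.12 CPM and 235 ± 15.7 CPM (SD, n = 3 per group). Dnajc13, which acts on endosomes, was at 13.0, 10.1 and 15.3 CPM in LAIR-1-deficient mice, against 9.96, 19.8 and 19.4 CPM in wild type mice, so that the lowest library was wild type mouse 1 and the groups overlapped. Its log2 fold change was -0.35, or -0.60 with wild type mouse 1 dropped and -0.20 with wild type mouse 2 dropped.

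Further members, chosen after their values were seen, cover other compartments. Hspa9, the mitochondrial HSP70 (mortalin), was at 54.2, 49.6 and 43.6 CPM in LAIR-1-deficient mice, against 53.5, 48.7 and 48.1 CPM in wild type mice, a log2 fold change of -0.03. Dnajc15 and Dnajc19, J-domain proteins of the mitochondrial inner membrane, had log2 fold changes of 0.05 and -0.08. Dnajc9, a chaperone of histones, was at 122, 121 and 135 CPM in LAIR-1-deficient mice, against 126, 172 and 147 CPM in wild type mice. Wild type mouse 1 lay within the LAIR-1-deficient range of Dnajc9, and its log2 fold change was -0.23 (-0.47 to 0.01). Dnajb11 and Dnajc10, co-chaperones of the endoplasmic reticulum, had log2 fold changes of -0.01 and 0.10. Dnajc6 (auxilin), which helps to strip clathrin from vesicles, was at 1.73, 2.49 and 0.41 CPM in LAIR-1-deficient mice, against 0.378, 2.96 and 0.898 CPM in wild type mice. That is a ratio of up to 5.03 between mice of 1 genotype, at a level of few counts, and an interval of the log2 fold change of -1.46 to 1.57. Dnajb3 had 0 counts in all LAIR-1-deficient mice, against 1, 2 and 3 counts in wild type mice, both at or under the limit of 3 counts.

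Grouped by place in the cell, medians lay close to 0. The 8 tested mitochondrial members had a median log2 fold change of -0.02 and the 9 tested members of the endoplasmic reticulum one of 0.001. Members with at least 2 alternating units had 7 log2 fold changes above and 6 below 0 over 13 tested genes and a median of 0.07, against 19 positive and 19 negative and a median of -0.003 over 38 tested members with a window without them.

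The spread between mice of 1 genotype was set against that of all tested genes, and the shares were close. The highest and lowest mouse of a genotype differed by over 1.5-fold for 8 of 49 tested members at 10 CPM or more (16.3%, against 16.4% of all such genes). Without the limit on level it was 21 of 65 (32.3%, against 33.9%). The 8 were Dnajc13, Hsph1, Dnajb1, Dnajb9, Dnaja1, Dnajb4, Hspa13 and Dnajc3. Dnajb1, the HSP40 that heat induces, was at 109, 59.6 and 86.8 CPM in LAIR-1-deficient mice, against 99.0, 69.2 and 70.5 CPM in wild type mice. Dnajb9, a co-chaperone of the endoplasmic reticulum, was at 39.6, 21.9 and 26.8 CPM in LAIR-1-deficient mice, against 43.1, 28.1 and 28.5 CPM in wild type mice. Both were highest in mouse 1 of each genotype, and their log2 fold changes were 0.10 and -0.17. Hspa5, which Dnajb9 assists and which is not a member, was at 174, 125 and 125 CPM in LAIR-1-deficient mice, against 209, 145 and 127 CPM in wild type mice. Dnajc3, another co-chaperone of Hspa5, was at 62.3, 75.2 and 95.6 CPM in LAIR-1-deficient mice, against 76.7, 79.9 and 76.5 CPM in wild type mice. It was highest in LAIR-1-deficient mouse 3 and lowest in mouse 1 of the same genotype. Dnajb4, a cytosolic J-domain protein, was at 18.9, 12.1 and 14.6 CPM in LAIR-1-deficient mice, against 18.7, 11.8 and 15.6 CPM in wild type mice.

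**Figure D3:**
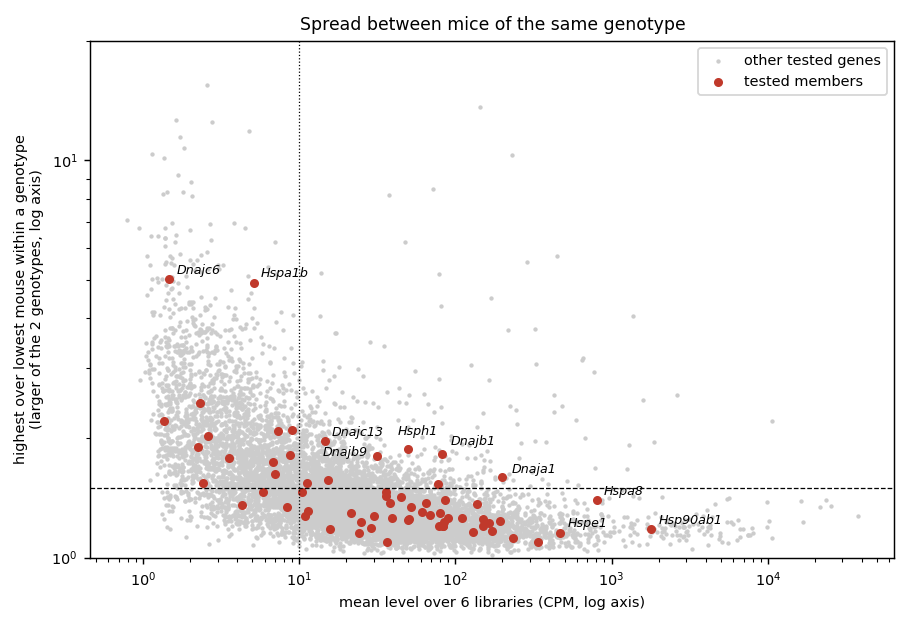
Highest over lowest mouse within a genotype, the larger of both genotypes, against mean level over 6 libraries (CPM; both axes logarithmic; red, 65 tested members; grey, other tested genes; dashed line, 1.5-fold; dotted line, 10 CPM). Hsph1 and Dnajb1 lie above the dashed line and Hspe1 and Hsp90ab1 below it, and 1 other gene lies above the plotted range.

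Counted over all members, mouse 1 was the highest of its genotype in both genotypes for 14 of 65 members (21.5%, against 16.9% of all tested genes), mouse 2 for 7 (10.8%, against 10%) and mouse 3 for 4 (6.15%, against 12.1%). The 14 included Dnajb1, Dnajb9, Dnajb4, Hspa1b, Hsp90aa1 and 3 CCT subunits. LAIR-1-deficient mouse 3 was the highest of all 6 libraries for 16 members (24.6%, against 17.2% of all tested genes), among them Hspa8, Hsph1, Dnaja1, Stip1, Hspa4 and Hsp90ab1. LAIR-1-deficient mice 1 and 2 were highest for 14 (21.5%, against 19.1%) and 6 (9.23%, against 17.7%). Wild type mice 1 to 3 were highest for 13, 10 and 6 members (20%, 15.4% and 9.23%), against 17.1%, 13.4% and 15.5% of all tested genes. The summed level of the tested members was 6793, 6413 and 7328 CPM in LAIR-1-deficient mice 1 to 3 and 6863, 6657 and 6406 CPM in wild type mice 1 to 3. The sum weighs genes by level, with Hsp90ab1 at 1975 and Hspa8 at 1002 CPM in LAIR-1-deficient mouse 3. The median log2 deviation of members from their own means was -0.008, -0.015 and 0.032 in LAIR-1-deficient mice 1 to 3. It was 0.04, 0.01 and -0.062 in wild type mice 1 to 3, so wild type mouse 1 was highest by that measure. Erythroid markers were high in LAIR-1-deficient mouse 3 and in wild type mouse 2, and their part in the values of LAIR-1-deficient mouse 3 was not tested. In bulk RNA, a change in fewer cells and a smaller change in every cell cannot be told apart.

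**Figure D4:**
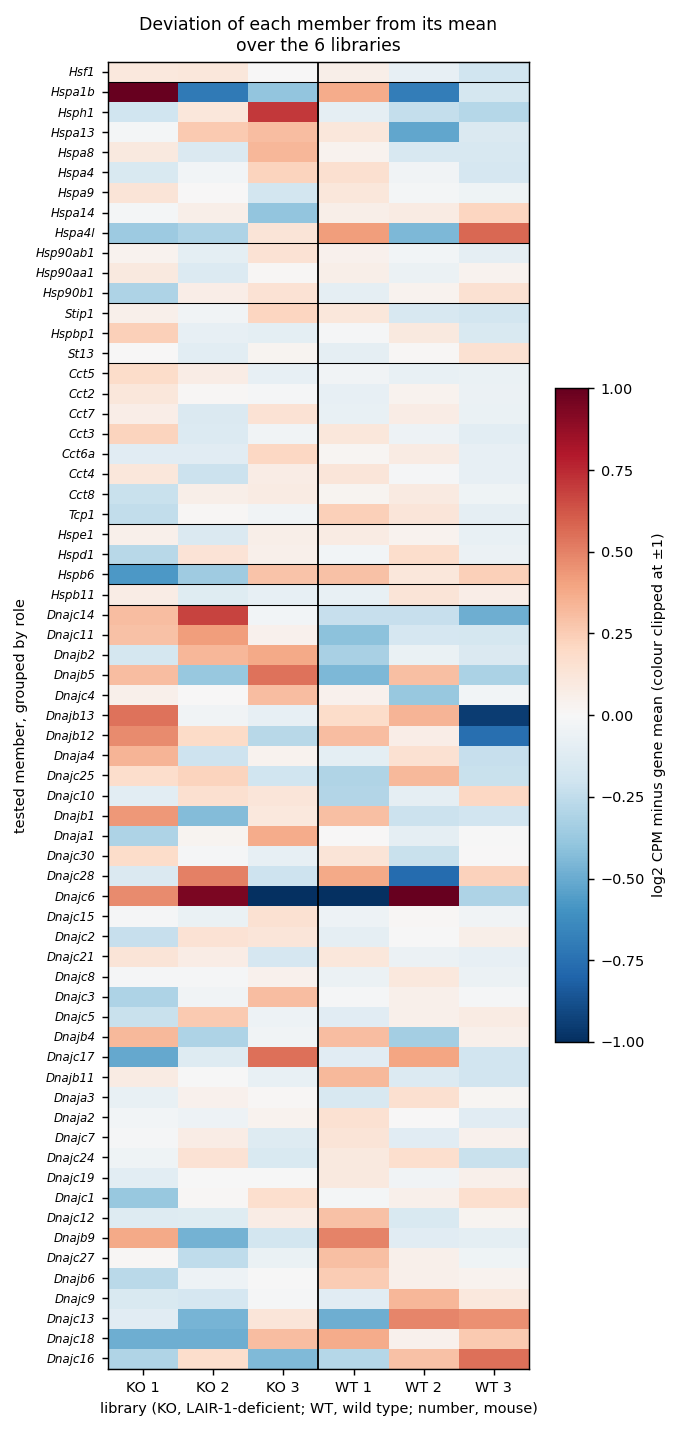
Deviation of each of the 65 tested members from its own mean over the 6 libraries (log2 CPM; red above, blue below, colour clipped at 1 in either direction; LAIR-1-deficient libraries left, wild type right; rows grouped by role). LAIR-1-deficient mouse 3 is red for Hsph1 and Dnaja1, mouse 1 of both genotypes is red for Hspa1b and Dnajb1, and TRiC/CCT rows are pale.

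Genes that work with the members but fall outside the rule gave no call either. Of 22 tested HSP90 co-chaperones, 10 had a positive and 12 a negative log2 fold change with a median of -0.02. Cdc37, which brings kinases to HSP90, was at 162, 152 and 145 CPM in LAIR-1-deficient mice, against 125, 140.2 and 142 CPM in wild type mice. Ruvbl2, an ATPase of a HSP90-linked assembly complex, had a log2 fold change of 0.24. Of 9 tested nucleotide exchange factors, 4 had a positive and 5 a negative value, and the median was -0.15. At an unadjusted p under 0.05 stood 1, against 3.25% of all tested genes. That was Sil1, which acts on Hspa5, at 3.60 ± 0.934 CPM in LAIR-1-deficient and 5.96 ± 2.30 CPM in wild type mice (SD, n = 3 per group; edgeR adjusted p 0.9999). Of 10 tested prefoldin subunits and CCT cofactors, 5 were positive and 5 negative, with Pfdn2 at 0.21 and Pdcl at -0.24. Of 5 tested HSF family members and regulators, 4 were positive and 1 negative. Trim28, a transcriptional corepressor, averaged 331 ± 15.7 CPM in LAIR-1-deficient and 285 ± 7.87 CPM in wild type mice (SD, n = 3 per group), without overlap. Its log2 fold change was 0.22 (0.03 to 0.40), with an unadjusted p of 0.0236 and an adjusted p of 0.9999 in edgeR's fit. Hsf2 had a log2 fold change of -0.59. Of 7 tested genes among other heat-induced targets, 2 were positive and 5 negative, and Hmox1, the haem oxygenase that stress induces, was at 1.59, 2.67 and 1.64 CPM in LAIR-1-deficient mice and 5.05, 6.24 and 4.94 CPM in wild type mice. Its groups did not overlap. The log2 fold change was -1.48 (-2.21 to -0.75), with an unadjusted p of 0.000474 and an adjusted p of 0.9999 in edgeR's fit. Trim28 and Hmox1 were each 1 gene of their list at an unadjusted p under 0.05, and HSP90 co-chaperones and prefoldin and CCT cofactors had 0. LAIR-1-deficient libraries also lay wholly above wild type for Cdc37, Ruvbl2 and Pfdn2. Like Trim28 and Hmox1, these were named for the smallest p of their lists, which favours groups that do not overlap. Over all tested genes, without such a choice, they lay wholly above for 4.30% and wholly below for 4.09%. Those shares are therefore no like comparison for the named genes, and separation over the whole lists was not counted.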

How the data were processed

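RNA of sorted naive CD8 T cells of 3 LAIR-1-deficient and 3 wild type mice was measured in 1 library per mouse. The authors deposited raw counts per gene as whole numbers, per the file headers. Libraries were made with small RNA primers, per the labels' protocols, and BWA and mm10 are named, per the submitters' processing notes. Which annotation, counting tool and strand setting were used, and whether molecular identifiers were, is not given in the sources used here. By annotation (GENCODE vM21, GRCm38), 22 of 77 members overlap another gene of the table on the other strand and 2 on the same strand.

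The 4 spike-in rows were left out. The test was edgeR 4.0.16 (R 4.3.3) with filterByExpr at a smallest count of 10, TMM scaling, its two-sided quasi-likelihood F test with robust fitting, and Benjamini-Hochberg adjustment over 9565 genes at 0.05. CPM are TMM-scaled. The common biological coefficient of variation was 0.135. Intervals cover 95% and rest on the spread between libraries, with no separate term for amplification. The limit of 3 counts for a count of 0 takes no account of amplification. DESeq2 1.42.0 and limma 3.58.1 (voom) were alternatives, as were other scalings and filters and leaving out each library. The fit was tested on simulated data. Chi-square per gene between libraries ranged from 5.39 to 26.1, so all 6 were used as separate mice.

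The members and lists were chosen with earlier results of these data known. Named members are, per role, the 3 highest and the 2 with the smallest p, the 8 with the largest spread between mice at 10 CPM or more, and those whose sequence is shown; per other list the 2 with the smallest p. For any other member the text says that it was picked with its values in view, or gives it only among counts.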

Additional observations from a re-analysis of the deposited data

How the results depend on the processing

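No member was called under any of the 14 alternatives, with the smallest member adjusted p between 0.337 (no low-count filter) and 1. Over all genes, where the main count was 1, 3 were called with no low-count filter and 0 with a smallest count of 30, with limma-voom (302 genes at an unadjusted p under 0.05) or without mouse 1 of both groups (440 genes), and leaving out single libraries gave 0 to 2. Members at an unadjusted p under 0.05 were 3 of 65 in the main fit, beside 311 of 9565 genes. They were 6 of 77 with no filter (568 of 14515 genes) and 8 of 66 without mouse 1 of both groups (440 of 9707 genes). When single libraries were left out, they ranged from 1 of 66 without wild type mouse 3 (353 of 9693 genes) to 7 of 65 without wild type mouse 1 (344 of 9686 genes). Dnajc11 was among them in every one of these fits. The count of members with a positive log2 fold change ranged from 28 to 37 and the members' median from -0.03 to 0.03 when single libraries were left out. The spread count of 21 was 8 at 10 CPM or more.

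For the 32 named members, 402 of 447 alternative values had the main direction and 45 the opposite one, and 0 were called. Dnajb4 (main -0.0038) was 0.0029 with library totals and 0.0152 with limma-voom. Dnajc3 (main 0.001) was -0.0035 with no filter, -0.0013 with a smallest count of 30, -0.019 with limma-voom and -0.0167 with the replicate block. Without mouse 1 of both groups, the opposite direction was found for Cct8 (0.0421), Dnaja2 (0.0417), Dnajc8 (-0.0142), Hsp90b1 (0.0057), Hspa1b (-0.1327), Hspbp1 (-0.0699) and Hspd1 (0.0224). Leaving out single libraries turned the direction of 18 members, whose log2 fold changes then ranged from -0.0135 to 0.1266 for Cct7, -0.1041 to 0.0402 for Cct8, -0.1012 to 0.2364 for Dnaja1, -0.0947 to 0.0396 for Dnaja2, -0.1163 to 0.2987 for Dnajb1, -0.1924 to 0.1567 for Dnajb4, -0.4433 to 0.0627 for Dnajb9, -0.1798 to 0.1356 for Dnajc3, -0.0237 to 0.0637 for Dnajc8, -0.0706 to 0.0449 for Hsp90aa1, -0.006 to 0.1133 for Hsp90ab1, -0.1529 to 0.0655 for Hsp90b1, -0.4573 to 1.0669 for Hspa1b, -0.0828 to 0.1266 for Hspa4, -0.0733 to 0.111 for Hspbp1, -0.1415 to 0.0538 for Hspd1, -0.0658 to 0.0433 for Hspe1 and -0.1102 to 0.0106 for St13. The cause of these turns was not tested.

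Mouse numbers are shared by both groups in the labels, but they did not pair all the samples. Correlations of same-numbered deviations from the group means were 0.29, 0.00938 and 0.065. The mouse 1 libraries did go together, as LAIR-1-deficient mouse 1 correlated at -0.0914 and -0.222 with wild type mice 2 and 3. LAIR-1-deficient mouse 2 correlated best with wild type mouse 3 (0.184). With mouse number as a replicate block, 0 members and 1 gene were called. There 4 of 65 members had an unadjusted p under 0.05, beside 448 of 9565 genes. With a smallest count of 30, Hspa1b was not tested. The 12 members under the count filter, among them Hspa1a, Hspb1 and Bag3, have few counts and were left out of the main fit. With no low-count filter they were tested, and Hspa1a was among the 6 members at an unadjusted p under 0.05 in edgeR's fit. Of its 40 counts in LAIR-1-deficient mice, 34 came from mouse 1. All 8 tested members whose interval reached beyond 2-fold averaged under 10 CPM, and the part of depth in their width was not tested.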
